A study of Mus musculus with 7 samples.

Results

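Expression of 10 genes of meningeal fibroblasts was followed in RNA from brain neurons of il4ra fl/fl mice with and without a neuronal Cre. The genes were Dcn, Lum, Bgn, Ogn, Myoc, Islr, Slc6a13, Aldh1a2, Foxc1 and Foxd1. They were given by name, in a choice made with earlier results of these data known. Each was found as 1 gene among the 46333 of the deposited count tables. All 10 passed the filter on low counts. Each library was made from neurons of whole adult female mouse brain, from which microglia, oligodendrocytes and astrocytes had been removed with antibody-coupled magnetic beads. The study names no antibody to fibroblasts, mural cells or endothelial cells for this depletion. It checked the isolates by flow cytometry for the depleted classes, endothelial cells and immune cells. From that check it reports a high neuronal purity, which is a share of cells and not of RNA. There were 3 libraries of il4ra fl/fl.Syn cre+ mice (cre+) and 4 of il4ra fl/fl.Syn cre- mice (cre-), and the comparison asked how transcripts of the isolate differed when neurons lacked the interleukin-4 receptor alpha chain. Both groups carried the floxed Il4ra allele, and the cre- mice were littermates. Syn cre is driven by the promoter of synapsin 1, a neuronal gene, so the recombination was not directed at fibroblasts.

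Meningeal fibroblasts form the dura, arachnoid and pia around the brain and line its larger vessels. They lay down a collagen-rich matrix that is organized by small leucine-rich proteoglycans, secreted core proteins that bind collagen fibrils and can hold transforming growth factor beta. They also make retinoic acid and take up GABA and other solutes at the border with the cerebrospinal fluid. The 10 genes cover these roles. Dcn, Lum, Bgn and Ogn encode small leucine-rich proteoglycans, Myoc and Islr encode other secreted proteins, Slc6a13 encodes a transporter, Aldh1a2 an enzyme and Foxc1 and Foxd1 forkhead transcription factors.

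The 10 genes lie on 6 chromosomes (GRCm39). Dcn (97315471 to 97354005) and Lum (97400990 to 97408565) are neighbors on the plus strand of chromosome 10. Ogn, Foxc1 and Foxd1 are on chromosome 13, Islr and Aldh1a2 on chromosome 9, Bgn on X, Myoc on 1 and Slc6a13 on 6. Promoter sequences, from 250 bases before to 50 bases after the start site, were found in RefSeq (GRCm38.p6, a different build from the counts) for 8 of the 10 genes, with 10 windows between them. The windows of Bgn, Myoc and Islr, which DESeq2 called as higher in cre+ (adjusted p under 0.05), and of Foxc1, which had a different pattern over libraries, are shown 5′ to 3′ on the strand of the gene. They lie at chrX:73483351-73483650 (plus strand), chr1:162638900-162639199 (plus), chr9:58158505-58158804 (minus) and chr13:31806396-31806695 (plus). Capitals mark any match, on either strand, to a TATA box (TATAAA), a GC box (GGGCGG), a forkhead motif (GTAAACA) or an E-box (CAGCTG).
Bgn: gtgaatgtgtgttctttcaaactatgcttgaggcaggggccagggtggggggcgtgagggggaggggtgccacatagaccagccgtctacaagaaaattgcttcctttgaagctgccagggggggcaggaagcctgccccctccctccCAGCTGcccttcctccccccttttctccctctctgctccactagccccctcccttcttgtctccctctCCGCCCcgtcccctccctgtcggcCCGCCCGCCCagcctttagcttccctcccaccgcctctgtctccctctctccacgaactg
Myoc: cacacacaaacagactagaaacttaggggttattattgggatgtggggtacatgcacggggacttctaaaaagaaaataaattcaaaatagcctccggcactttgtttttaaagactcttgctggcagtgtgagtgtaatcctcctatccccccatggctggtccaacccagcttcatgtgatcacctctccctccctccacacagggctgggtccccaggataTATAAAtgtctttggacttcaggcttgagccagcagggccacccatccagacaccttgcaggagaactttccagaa
Islr: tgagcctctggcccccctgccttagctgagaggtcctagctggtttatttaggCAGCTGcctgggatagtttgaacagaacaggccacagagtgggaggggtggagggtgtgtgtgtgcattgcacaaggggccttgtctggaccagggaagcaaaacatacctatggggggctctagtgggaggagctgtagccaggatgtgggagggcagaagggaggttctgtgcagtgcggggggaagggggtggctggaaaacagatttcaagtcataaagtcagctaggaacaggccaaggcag
Foxc1: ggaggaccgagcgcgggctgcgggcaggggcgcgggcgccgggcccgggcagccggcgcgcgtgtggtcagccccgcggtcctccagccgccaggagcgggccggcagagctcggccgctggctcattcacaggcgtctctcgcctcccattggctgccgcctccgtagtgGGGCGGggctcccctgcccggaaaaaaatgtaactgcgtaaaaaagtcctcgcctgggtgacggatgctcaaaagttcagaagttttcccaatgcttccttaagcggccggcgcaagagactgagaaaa

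The windows differed in base composition. GC content was 63.7% for Bgn, 48.7% for Myoc, 57.0% for Islr and 67.3% for Foxc1, against a median of 52.7% over all 32851 windows. The Foxc1 window held 32 CpG dinucleotides, Bgn 9, Myoc 2 and Islr 1, where the median over all windows was 7. Aldh1a2 had the most, with 50 CpG and 78.0% GC. TATAAA stood in 2 of the 10 windows (Ogn and Myoc), with its first base at -26 from the start site in Myoc. Over all windows 13.6% held it. GGGCGG stood in 4 windows (Bgn, Slc6a13, Foxc1 and Foxd1) against 35.7% of all. CAGCTG stood in 4 (Bgn, Ogn, Islr and Slc6a13) against 16.3% of all, and the forkhead motif GTAAACA in 0 against 3.65%. The GGGCGG and CAGCTG matches did not overlap each other.

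Levels are given in CPM, read counts scaled to library size. Library totals ran from 68213223 to 94376841 counts. All 16 neuron markers were detected in every library, and their summed level (1502 to 2759 CPM in cre+, 2664 to 4220 in cre-) was below that of 20 endothelial markers (18389 to 26258 and 12215 to 16983). These are sums over different genes, not scaled to transcript length, so they do not compare the amounts of both cell types. Nor can they be set against the study's purity, a share of cells. Il4ra itself was at 24.4 to 29.5 CPM in cre+ and 20.0 to 29.6 CPM in cre-. The floxed allele loses exons 7 to 9, so a count over the whole gene does not check the deletion.

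Per kilobase of the canonical transcript, the scale on which genes can be compared, Bgn, Foxc1 and Islr stood highest. In cre- libraries they had 16.4 ± 2.45, 14.1 ± 1.86 and 11.3 ± 3.14 CPM per kilobase (SD, n = 4), which do not differ beyond their spread for neighbors in this order. Ogn followed at 2.22 ± 0.599, then Foxd1 at 1.20 ± 0.371 and Dcn at 1.06 ± 0.223, of which Foxd1 and Dcn do not differ beyond their spread. Myoc (0.720 ± 0.441), Slc6a13 (0.632 ± 0.117), Aldh1a2 (0.299 ± 0.213) and Lum (0.258 ± 0.133) were below 1. In cre+ libraries Islr, at 27.8 ± 18.9 CPM per kilobase (SD, n = 3), stood between Bgn (33.9 ± 9.41) and Foxc1 (19.6 ± 6.94), and Lum was again lowest at 0.493 ± 0.435.

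**Figure D1:**
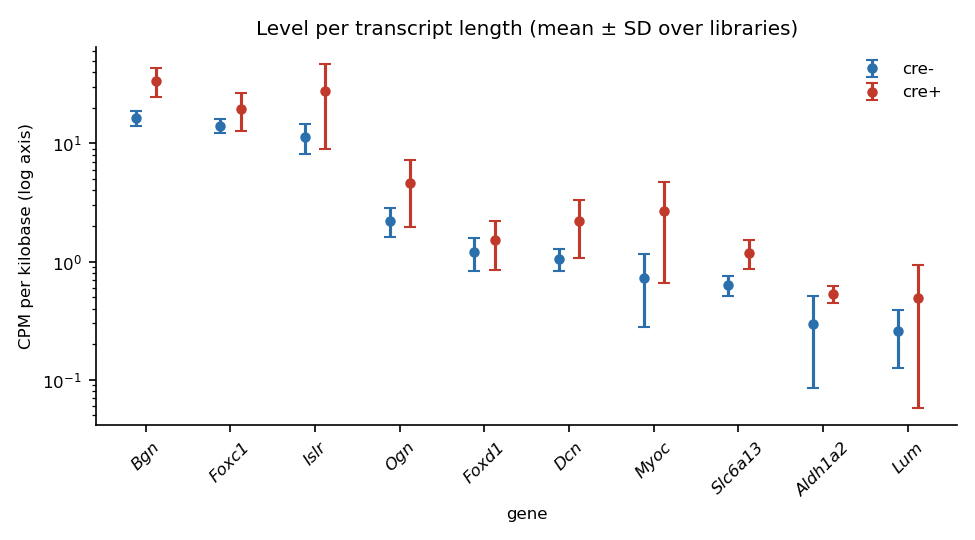
Level of each gene in CPM per kilobase of canonical transcript (log axis), as mean ± SD over the 4 cre- libraries (blue) and the 3 cre+ libraries (red), with genes ordered by their cre- mean. Bgn, Foxc1 and Islr are the highest and Lum the lowest, and the cre+ mean is above the cre- mean for all 10 genes.

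Of the proteoglycans, Bgn differed most clearly. Bgn encodes biglycan, a matrix proteoglycan that carries chondroitin or dermatan sulfate chains. Its level was 57.7, 85.5 and 103 CPM in cre+ replicates 1, 2 and 3 and 33.0, 41.3, 37.6 and 47.1 CPM in cre- replicates 1 to 4. All 3 cre+ libraries were above the 4 cre- libraries, with a mean of 82.0 ± 22.8 CPM (SD, n = 3) against 39.7 ± 5.92 CPM (SD, n = 4). This is a log2 fold change (cre+ minus cre-) of 1.05 ± 0.20 (SE), for which edgeR gave an adjusted p of 0.0939 (Benjamini-Hochberg over 21542 genes) and DESeq2 one of 0.000293. In bulk RNA, more cells of a type and more RNA per cell cannot be told apart, and this holds for every gene here.

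Dcn encodes decorin, which sits on collagen fibrils and sets their spacing. It was at 7.29, 12.2 and 20.8 CPM in cre+ and 7.61, 4.83, 7.54 and 5.83 CPM in cre-. Replicates 2 and 3 of cre+ were above every cre- library, but cre+ replicate 1 lay below cre- replicates 1 and 3. For its log2 fold change of 1.06 ± 0.34 (SE), the adjusted p was 0.151 by edgeR and 0.0297 by DESeq2. Ogn, which encodes osteoglycin (mimecan), had the same order of cre+ libraries, with 9.10, 26.3 and 36.4 CPM against 10.8, 15.6, 8.12 and 11.3 CPM in cre-. Its first cre+ replicate was within the cre- range. Ogn had a log2 fold change of 1.06 ± 0.41 (SE), and the adjusted p was 0.207 by edgeR and 0.067 by DESeq2. Part of Ogn, 1155 of the 5174 bases of its canonical transcript, overlaps exons of Cenpp on the opposite strand. Cenpp had 99 to 201 counts per library and Ogn 584 to 2704, and since the use of strand in counting was not stated, reads of the shared bases cannot be told apart.

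Lum, which encodes lumican, a keratan sulfate proteoglycan of collagen-rich tissue, was the sparsest of the 4, with 24 to 181 counts per library. It was at 0.757, 0.447 and 2.44 CPM in cre+ and 0.465, 0.737, 1.04 and 0.298 CPM in cre-. A single library, cre+ replicate 3, was above the cre- range, and cre+ replicate 2 was below 3 of the 4 cre- libraries. Lum had a log2 fold change of 0.93 ± 0.68 (SE), adjusted p 0.485 by edgeR and 0.397 by DESeq2, and without cre+ replicate 3 it was -0.07 in edgeR. The neighbors Dcn and Lum therefore shared their highest library but not the order of the other cre+ libraries.

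**Figure D2:**
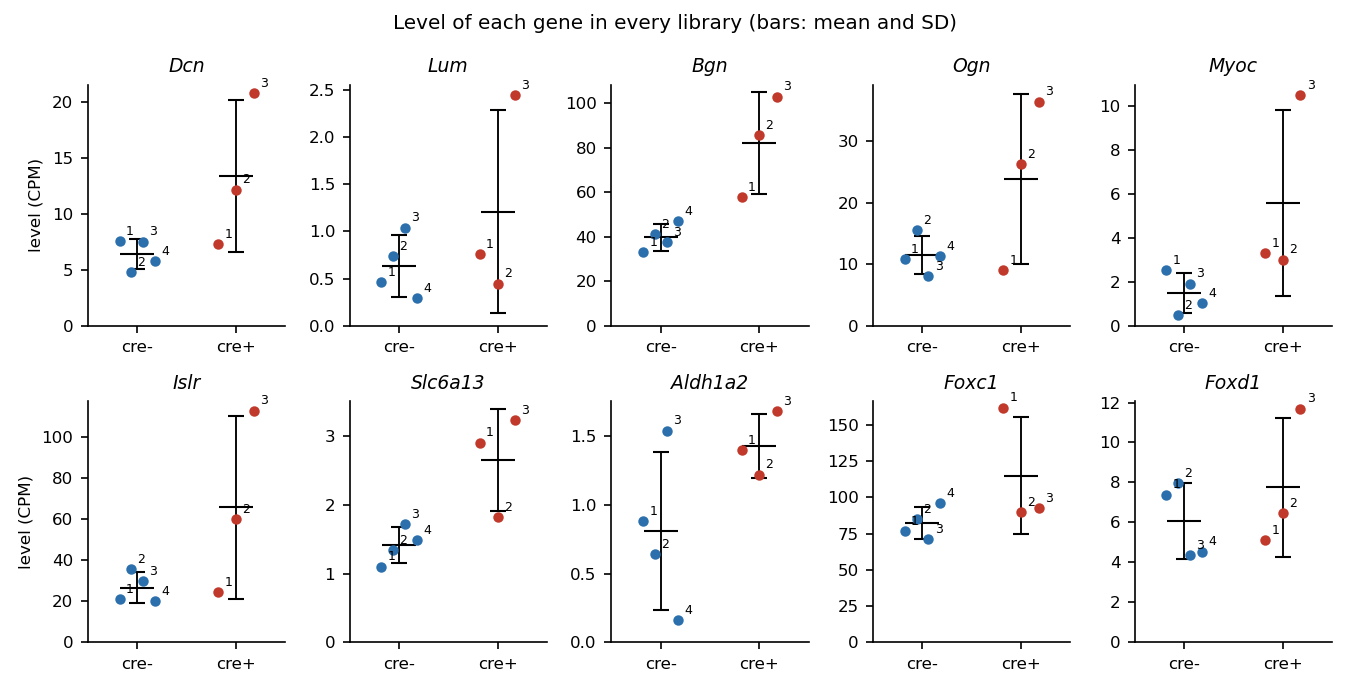
Level of each gene in CPM (counts scaled to library size) in every library, with the replicate number beside each point, cre- in blue and cre+ in red, and bars for mean and SD (n = 4 and n = 3). Bgn, Myoc and Slc6a13 have no overlap between the genotypes, cre+ replicate 3 is the highest library for 9 genes, and Foxc1 is highest in cre+ replicate 1.

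Myoc had the greatest log2 fold change of the 10 genes. It encodes myocilin, a secreted olfactomedin-domain glycoprotein that is best known from the trabecular meshwork of the eye. Levels were 3.31, 3.02 and 10.5 CPM in cre+ and 2.54, 0.475, 1.93 and 1.04 CPM in cre-. The groups did not overlap, although cre+ replicates 1 and 2 were only just above cre- replicate 1. Its log2 fold change was 1.90 ± 0.63 (SE), adjusted p 0.161 by edgeR and 0.0261 by DESeq2. Without cre+ replicate 3 the edgeR value was 1.08.

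Islr encodes a secreted leucine-rich repeat and immunoglobulin domain protein, also called meflin, which marks mesenchymal stromal cells. It was at 24.4, 60.0 and 113 CPM in cre+ and 21.2, 35.8, 29.7 and 20.2 CPM in cre-. Its 3 cre+ libraries were spread widely, from within the cre- range in replicate 1 to far above it in replicate 3. Islr had a log2 fold change of 1.30 ± 0.44 (SE), adjusted p 0.17 by edgeR and 0.0248 by DESeq2. Without cre+ replicate 3 the edgeR value was 0.66. The gene span of Islr reaches over Islr2, a neuronal relative on the same strand, and 858 exon bases are shared when all isoforms are counted but 0 in the canonical transcript of Islr. Islr2, named here after its values were seen, went the other way, with 374, 445 and 546 CPM in cre+ and 582 to 668 CPM in cre- (log2 fold change -0.46 ± 0.15, SE).

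Slc6a13 encodes the GABA and taurine transporter GAT2 of the leptomeninges. It was at 2.90, 1.82 and 3.23 CPM in cre+ and 1.10, 1.34, 1.72 and 1.48 CPM in cre-. The groups did not overlap, with the smallest gap between cre+ replicate 2 and cre- replicate 3. Slc6a13 had a log2 fold change of 0.91 ± 0.32 (SE), adjusted p 0.181 by edgeR and 0.051 by DESeq2. Aldh1a2, the retinaldehyde dehydrogenase that makes retinoic acid, had only 13 to 125 counts per library. Its levels were 1.40, 1.22 and 1.68 CPM in cre+ and 0.884, 0.642, 1.54 and 0.162 CPM in cre-. Here the spread lay in the cre- group, where replicate 3 was within the cre+ range and replicate 4 far below it. Its log2 fold change was 0.83 ± 0.64 (SE), adjusted p 0.512 by edgeR and 0.423 by DESeq2, and without cre- replicate 4 it was 0.49 in edgeR.

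The forkhead genes had the smallest fold changes. Foxc1, which is needed for development of the meninges and is also made by brain pericytes, was at 162, 90.1 and 92.8 CPM in cre+ and 76.7, 85.1, 71.1 and 96.1 CPM in cre-. It was the single gene of the 10 with its highest level in cre+ replicate 1, and the other cre+ libraries were within the cre- range. Foxc1 had a log2 fold change of 0.48 ± 0.21 (SE), adjusted p 0.25 by edgeR and 0.155 by DESeq2, and without cre+ replicate 1 it was 0.15 in edgeR. Foxd1, a factor of stromal progenitors, was at 5.11, 6.45 and 11.7 CPM in cre+ and 7.39, 7.96, 4.37 and 4.54 CPM in cre-. The groups overlapped throughout except for cre+ replicate 3. For Foxd1 the log2 fold change was 0.35 ± 0.35 (SE), adjusted p 0.623 by edgeR and 0.543 by DESeq2, and without cre+ replicate 3 it was -0.07 in edgeR.

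edgeR called none of the 10 genes at an adjusted p under 0.05, and called 0% of all 21542 genes tested, the lowest adjusted p being 0.0939. At an unadjusted p under 0.05 it gave 7 of the 10 as higher in cre+ (all but Lum, Aldh1a2 and Foxd1), where 10.2% of all genes tested were, and 0 as lower (9.75% of all). DESeq2 called 4 of the 10 as higher (Bgn, Dcn, Islr and Myoc) and 0 as lower, against 6.70% higher and 5.48% lower of the 16345 genes to which it gave an adjusted p. The libraries of the genotypes did not overlap for 3 of the 10 (Bgn, Myoc and Slc6a13, all higher in cre+), against 8.94% of all genes higher and 9.72% lower without overlap. All 10 fold changes were positive, where 46.0% of all genes had a positive and 54.0% a negative one. The median log2 fold change was 0.99 over the 10 genes and -0.04 over all genes tested. Since the 10 genes were chosen with earlier results of these data known, these shares describe them and are no test of the set.

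**Figure D3:**
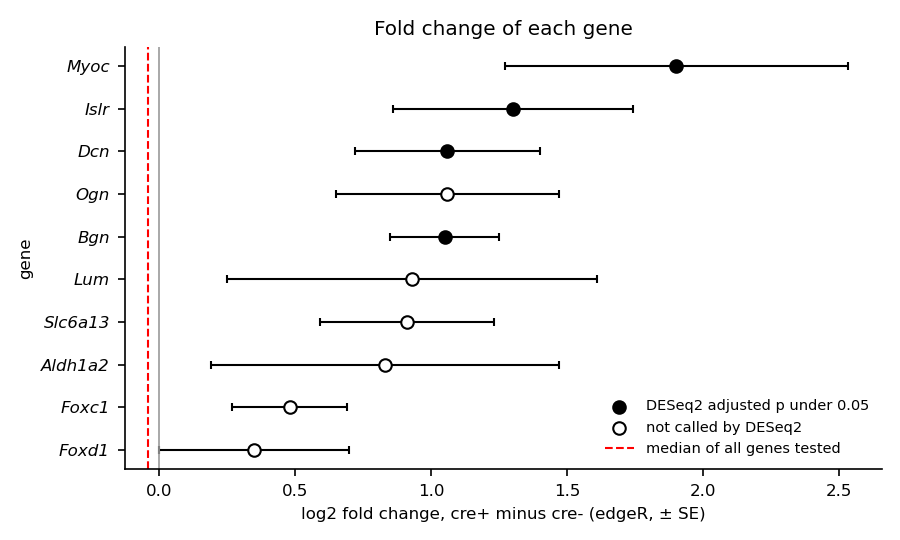
Log2 fold change (cre+ minus cre-, edgeR) of each gene with its SE, filled points marking an adjusted p under 0.05 in DESeq2 and the dashed line the median of all genes tested (-0.04). All 10 points are to the right of 0, from 0.35 for Foxd1 to 1.90 for Myoc, and Bgn has the smallest SE.

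The cre+ libraries contributed unequally. Relative to the cre- mean on a log2(CPM + 0.1) scale, the median difference of the 10 genes was 0.44 in cre+ replicate 1, 0.88 in replicate 2 and 1.54 in replicate 3. The number of genes above every cre- library was 4, 6 and 9 in the same order, a count that was not made over all genes. Replicate 3 was the highest of all 7 libraries for 9 of the 10 genes. The summed level of the 10 genes was 274, 287 and 395 CPM in cre+ and 162, 194, 165 and 188 CPM in cre-, a ratio of means of 1.80. Foxc1 made up 59.1% of that sum in cre+ replicate 1, 31.4% in replicate 2 and 23.5% in replicate 3, and 43.2% to 51.1% in the cre- libraries, so the mix of the 10 genes also differed between the cre+ libraries.

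**Figure D4:**
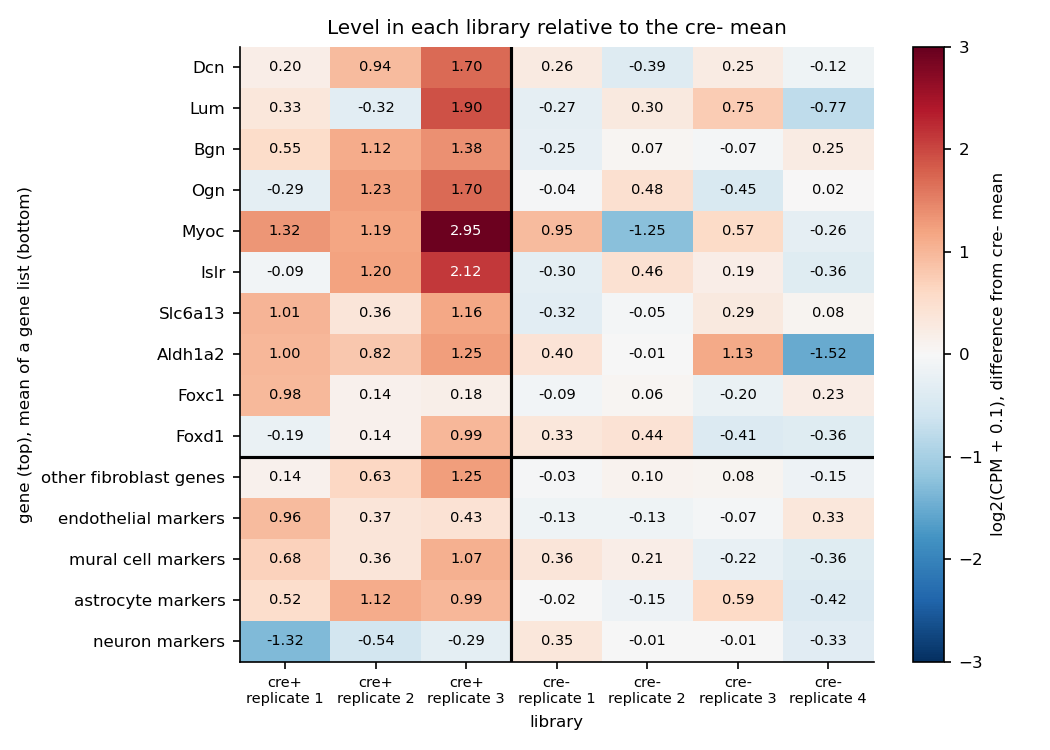
Difference from the cre- mean in log2(CPM + 0.1) for each gene (top) and for the mean of 5 gene lists (bottom) in every library, red for higher and blue for lower. Cre+ replicate 3 is highest for 9 genes, for the other fibroblast genes and for the mural cell markers, while Foxc1 and the endothelial markers are highest in cre+ replicate 1.

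Leaving out single libraries changed the DESeq2 calls, and the share of all genes called in these fits was not counted. Without cre+ replicate 3 the called genes were reduced to Bgn (log2 fold change 0.86, adjusted p 0.0056 in DESeq2), and the same single gene was left without cre- replicate 4. Without cre+ replicate 2 DESeq2 called Bgn, Myoc and Slc6a13. Without cre- replicate 1 it called Bgn, Dcn and Myoc, without cre- replicate 2 Bgn and Islr, and without cre- replicate 3 Bgn and Myoc. Without cre+ replicate 1 there were 5, the 4 of the full data and Ogn. Bgn was thus called in each of these 7 fits. In edgeR without cre+ replicate 3, an unadjusted p under 0.05 was left for 2 genes, Bgn and Foxc1, against 9.17% of all genes, and the fold changes of Dcn and Ogn were 0.60 and 0.62.

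**Figure D5:**
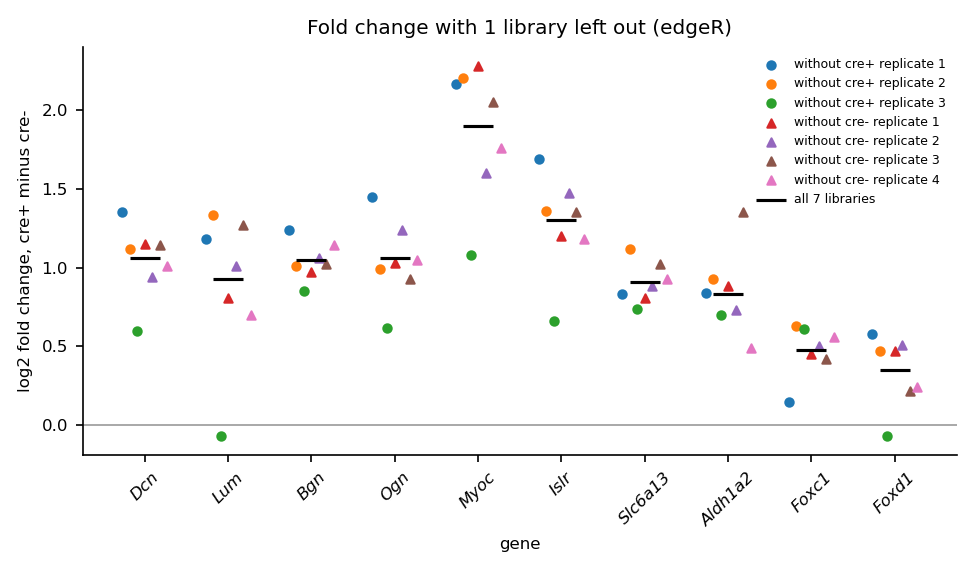
Log2 fold change (edgeR) of each gene after leaving out 1 library, circles for a cre+ and triangles for a cre- library, with a bar for the fit of all 7 libraries. Without cre+ replicate 3, Lum and Foxd1 are at -0.07, Dcn at 0.60, Ogn at 0.62, Islr at 0.66 and Myoc at 1.08, while Foxc1 is lowest without cre+ replicate 1 at 0.15.

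As a mean over the list, other genes of fibroblasts gave a similar order of cre+ libraries, but several single genes named below did not. On the log2(CPM + 0.1) scale, 20 such genes exceeded their cre- mean by an average of 0.14, 0.63 and 1.25 in cre+ replicates 1, 2 and 3, with cre- libraries at -0.15 to 0.10, and the median log2 fold change was 0.80. DESeq2 called 7 as higher and 1 as lower, against 6.70% and 5.48% of all genes with an adjusted p, and gave no adjusted p to Col1a1. At an unadjusted p under 0.05 edgeR gave 9 and 1, against 10.2% and 9.75% of all genes. Vtn, which encodes vitronectin and is also a mural cell marker, was at 140.2, 87.0 and 131 CPM in cre+ replicates 1, 2 and 3. In cre- it was at 42.1 to 57.3 CPM (log2 fold change 1.26 ± 0.17, SE). Igf2, a growth factor gene and the most abundant of the list, ranged from 146 to 631 CPM over the 7 libraries. Apod, a lipocalin of fibroblasts, was at 97.5, 91.5 and 107 CPM in cre+ replicates 1, 2 and 3, with a log2 fold change of 0.87 ± 0.14 (SE). Col5a1, a fibrillar collagen chain, was the 1 gene called lower (-1.03 ± 0.27, SE). Of genes named after their values were seen, Col1a1, a chain of type I collagen, was at 34.9, 30.1 and 198 CPM in cre+ and 8.10 to 36.2 CPM in cre-, so that cre+ replicate 3 stood alone. Pdgfra, a receptor of fibroblasts and oligodendrocyte precursors, did not follow the order of the list mean either, with 10.5, 37.9 and 14.7 CPM in cre+ and 10.5 to 22.3 CPM in cre-.

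Of 13 other small leucine-rich proteoglycans, 12 passed the filter, with a median log2 fold change of 0.37. Kera, a neighbor of Lum, had 0 counts in every library. DESeq2 called 1 as higher, Ecm2, a matrix protein gene (36.1 to 38.7 CPM in cre+, 17.3 to 28.7 in cre-, log2 fold change 0.80 ± 0.17, SE). It called 1 as lower, Nyx, which encodes nyctalopin, known for its role in retinal bipolar cells and not in meninges (-1.90 ± 0.49, SE). Of all genes with an adjusted p, DESeq2 called 6.70% as higher and 5.48% as lower. Omd, Epyc, Kera, Optc, Podnl1 and Chad had no adjusted p from it. Fmod, a collagen-binding relative of Lum that is also in the list of other fibroblast genes, had 1.07 ± 0.40 (SE) and was not called.

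Of 17 ligands, receptors and latent binding proteins of the TGF-beta pathway, which Dcn and Bgn products can bind, DESeq2 called 6 as higher and 0 as lower. Of all genes with an adjusted p it called 6.70% and 5.48%. The median log2 fold change of the list was 0.60. Tgfbr3, the co-receptor betaglycan, was at 118 to 123 CPM in cre+ and 67.0 to 89.0 CPM in cre- (0.67 ± 0.11, SE). The ligand genes Tgfb2 and Tgfb1 had log2 fold changes of 0.66 ± 0.12 and 0.69 ± 0.17 (SE). Without cre+ replicate 3 its median was 0.61, and that of the 10 genes was 0.64. Several of its genes, such as Eng, are also expressed by endothelial cells.

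Among 20 other retinoid genes, of which 19 were tested in edgeR, DESeq2 called 6 as higher and 0 as lower, against 6.70% and 5.48% of all genes. Cyp26a1 and Cyp26c1 had no adjusted p in DESeq2. The median log2 fold change was 0.38. Stra6, the receptor that takes up retinol, was highest in cre+ replicate 1, with 252, 188 and 137 CPM in cre+ and 92.4 to 113 CPM in cre- (0.96 ± 0.19, SE). Its exons share 16 bases with Islr on the opposite strand, and its order of cre+ libraries was the reverse of that of Islr. Rxra, a nuclear receptor partner, had 0.51 ± 0.10 (SE).

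Of 9 other transporters of GABA, osmolytes and organic ions, DESeq2 called 1, the taurine transporter gene Slc6a6 (1170 to 1679 CPM in cre+, 825 to 1155 in cre-, log2 fold change 0.58 ± 0.17, SE). It called 6.70% of all genes as higher, so 1 call in so short a list cannot be read as a result about these transporters. Slc6a12 and Slc22a6 had no adjusted p in DESeq2. Slc22a8, an organic anion transporter gene, had 0.48 ± 0.22 (SE) and was not called. Of 22 other forkhead and mesenchymal transcription factors, 19 were tested in edgeR. DESeq2 called 2 as higher (6.70% of all genes), Prrx1 (0.80 ± 0.26, SE) and Twist1 (1.28 ± 0.42, SE), both mesenchymal regulators. Foxd3, Foxl1, Twist2, Tcf21 and Osr2 had no adjusted p in DESeq2. Twist1, at 2.09, 3.42 and 7.09 CPM in cre+ and 1.48 to 2.28 CPM in cre-, is also counted among the other fibroblast genes, as is Tbx18. These lists are thus not separate. Foxq1, also known from brain endothelium, had 0.57 ± 0.20 (SE) and was highest in cre+ replicate 1, and Osr2 had 0 counts in every library.

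Markers of other cells differed between the same libraries, and a positive median log2 fold change was not particular to the fibroblast genes. The median was 0.99 for ependymal, 0.81 for astrocyte, 0.77 for choroid plexus and 0.71 for mural cell markers. It was 0.66 for oligodendrocyte, 0.64 for endothelial, 0.41 for microglia and -0.6 for neuron markers. DESeq2 called 14 of 20 endothelial markers as higher in cre+ and 0 as lower, against 6.70% and 5.48% of all genes with an adjusted p. No endothelial marker was at 0 in any library. Slc2a1, the glucose transporter of the blood-brain barrier and the most abundant of them, was at 3133 to 3709 CPM in cre+ and 1366 to 2357 CPM in cre- (adjusted p 0.000172 in DESeq2). On the log2(CPM + 0.1) scale these markers differed from their cre- mean by 0.96, 0.37 and 0.43 in cre+ replicates 1, 2 and 3, so that replicate 1 was highest, as for Foxc1, and the cre- libraries were at -0.13 to 0.33. For 16 mural cell markers, summed at 731 to 1008 CPM in cre+ and 482 to 701 CPM in cre-, the difference was 0.68, 0.36 and 1.07 in cre+ and 0.36, 0.21, -0.22 and -0.36 in cre-, so that cre+ replicate 2 and cre- replicate 1 were level. DESeq2 called 8 as higher and 0 as lower. Rgs5, a pericyte gene, had 0.91 ± 0.13 (SE).

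Among 16 neuron markers DESeq2 called 6 as lower and 0 as higher, and the mean difference was -1.32, -0.54 and -0.29 in cre+ replicates 1, 2 and 3 and 0.35, -0.01, -0.01 and -0.33 in cre- replicates 1 to 4. Here cre- replicate 4 was below cre+ replicate 3. Nefh, a neurofilament gene, had -0.87 ± 0.16 (SE), and Tubb3, the most abundant of these markers, ranged from 355 to 678 CPM. Of the depleted classes, DESeq2 called 4 of 12 astrocyte markers (such as Aldh1l1, 0.84 ± 0.20, SE), 3 of 10 oligodendrocyte markers (such as Mobp, 1.38 ± 0.26, SE) and 0 of 10 microglia markers as higher, with 0 lower in each. The most abundant astrocyte marker was Slc1a2 (57.3 to 188 CPM). Oligodendrocyte markers differed from their cre- mean by -0.42, 1.08 and 1.07 in cre+ replicates 1, 2 and 3, with cre- libraries at -0.3 to 0.31. Of these, Mobp (87.4, 177 and 214 CPM) and Mbp (283, 569 and 803 CPM) rose in that order of libraries. Mal did not, at 267, 327 and 231 CPM. DESeq2 also called 1 of 9 ependymal markers (Rsph1) and 0 of 9 choroid plexus markers. Of all genes with an adjusted p it called 6.70% as higher and 5.48% as lower. edgeR called no gene of any list. At an unadjusted p under 0.05 it gave 14 endothelial, 10 mural, 6 astrocyte, 3 oligodendrocyte, 0 microglia, 3 ependymal and 3 choroid plexus markers as higher (10.2% of all genes). It gave 12 neuron markers as lower (9.75% of all genes). With the endothelial mean as a covariate, edgeR gave a median log2 fold change of 1.81 over the 10 genes and 0.01 over all genes, and Foxc1 was at -0.23. That mean was 9.31 to 9.90 log2 CPM in cre+ and 8.80 to 9.27 in cre-, without overlap. Covariate and genotype can thus hardly be told apart in this fit. The part of the cell mix in the differences of the 10 genes was not tested.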

How the data were processed

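The labels gave 3 cre+ and 4 cre- mouse libraries, and littermates are the replicates. Per the study's methods, the authors trimmed reads with fastp, aligned them with STAR to GRCm39, filtered alignments with SAMtools and counted genes with StringTie. Their versions, annotation release and strand setting were not stated, so overlapping genes on opposite strands cannot be told apart. The deposited raw tables hold whole-number counts per gene, and 49 repeated rows with identical counts were dropped. The deposited normalized signal is the raw count divided by 1 factor per library and was used only as an alternative scaling. The column headers carry codes of which the meaning is not given, so a batch they might mark and the genotype cannot be told apart.

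Counts were tested with edgeR 4.0.16 in R 4.3.3 (quasi-likelihood test, TMM factors, filterByExpr, genotype as the single term, Benjamini-Hochberg over 21542 genes, threshold 0.05). The study's tool, DESeq2 1.42.0, tested 29539 genes with any count. CPM use TMM factors, and deviations add 0.1 CPM before log2. The procedure was tested on simulated data. Alternatives were RLE, upper-quartile and no scaling factors, 2 count filters, limma-voom 3.58.1, a replicate block, an endothelial covariate and leaving out each library. The 10 genes and the lists were chosen with earlier results of these data known. Named were the 10 genes, Il4ra, up to 3 genes with the smallest edgeR p per list, the most abundant marker of each cell type list and genes at 0. Genes named outside that rule (Col1a1, Pdgfra, Islr2, Cenpp, Eng) were picked after their values were seen, as were the DESeq2 fits without single libraries. Some genes that the rule named are not reported here. Promoter sequences are RefSeq's.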

Additional observations from a re-analysis of the deposited data

How the results depend on the processing

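With edgeR or limma-voom 0 of the 10 genes were called in any alternative, and with DESeq2 4. At an unadjusted p under 0.05, edgeR and limma-voom gave 2 to 7 as higher, where 4.77% to 12.5% of all genes were. Over all genes DESeq2 called 1990, and 59 in the lists. Without single libraries edgeR called 0 to 5 genes over all and 0 to 1 in the lists, the most without cre+ replicate 1. DESeq2 called 1 to 5 of the 10 genes without single libraries, where its share over all genes was not counted. The median log2 fold change of the 10 genes was 0.64 to 1.21 without single libraries, lowest without cre+ replicate 3. It was 1.81 with the endothelial covariate, which did not overlap between the genotypes. With library totals in place of TMM factors it was 0.86, while that of all genes went from -0.04 to -0.16. Of 159 single-gene values over 16 alternatives 156 were positive. Those that turned were Lum (-0.07 to 1.33 without single libraries, and -0.05 to 1.34 in DESeq2) and Foxd1 (-0.07 to 0.58, and -0.06 to 0.59 in DESeq2), both lowest without cre+ replicate 3, and Foxc1 (-0.23) with the covariate. The cause was not tested. The number of genes without overlap was 3 to 6 when single libraries were left out, with 6 without cre+ replicate 1, the library that lay within the cre- range for Dcn, Ogn and Islr. Fewer libraries make a gap between the groups more likely for any gene. The share over all genes was not counted there, so this rise cannot be read as a result about the 10 genes. The ratio of summed levels was 1.65 with library totals and 1.96 per kilobase.

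Samples with the same replicate number did not deviate together (r = -0.0267, -0.00357 and 0.0876 across genes, which are not independent replicates). The highest r was 0.160, for cre+ replicate 1 and cre- replicate 4. With so few libraries this cannot decide whether the numbers pair the animals, and the labels do not say. With the replicate number as a block, edgeR called 0 of the 10 genes and 0 over all genes, and gave a median of 0.90. DESeq2 called 3 of the 10 (Bgn, Islr and Myoc) with that block, and its share over all genes was not counted.

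Lum and Aldh1a2, with 13 to 181 counts per library, had the largest SE of the 10 in edgeR with all libraries (0.68 and 0.64). Myoc was hardly more precise (0.63), and with limma-voom its SE was above that of Aldh1a2 (0.65 against 0.61).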

Other observations

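Choroid plexus and microglia markers varied between libraries in another order than the 10 fibroblast genes. The 9 choroid plexus markers summed to 6711, 20326 and 8060 CPM in cre+ replicates 1, 2 and 3 and to 9674, 5736, 4085 and 7551 CPM in cre- replicates 1 to 4. Cre+ replicate 2 was highest, where the summed level of the 10 fibroblast genes was highest in cre+ replicate 3. Ttr, which encodes the thyroid hormone carrier transthyretin and is the most abundant of these markers, ranged from 3560 to 18253 CPM. The 10 microglia markers summed to 765, 1198 and 962 CPM in cre+ and to 192, 617, 1807 and 282 CPM in cre-, so their spread lay mostly within the cre- group. Csf1r, the growth factor receptor of microglia, ranged from 48.2 to 446 CPM. The ependymal sum was 111, 167 and 129 CPM in cre+ and 82.3, 56.4, 109 and 71.3 CPM in cre-.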
